A study of Mus musculus with 22 samples.

Results

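The Slc25a genes encode the mitochondrial carriers, and they were followed here in mouse soleus, a postural calf muscle that mixes slow and fast fibres. Members were the protein-coding genes of the deposited count table whose gene ID maps to a symbol starting with Slc25a, which gave 47 of 55487 genes. Of these, 39 passed the filter on low counts and were tested, among 15082 genes tested in all. The soleus came from male mice labelled WT or TRa1 KO, a knockout of thyroid hormone receptor alpha 1, that were given triiodothyronine (T3), the active form of thyroid hormone, or a vehicle. The groups held 5 WT vehicle, 6 WT T3, 4 KO vehicle and 7 KO T3 libraries of poly-A RNA. The labels give no age, dose or duration of T3, and do not say how the knockout was made or whether it was confined to muscle. Nor do they state that libraries came from separate animals, and p-values then measure only the spread between these samples, which may be technical. The series title concerns the role of this receptor of muscle in thermogenesis, and the comparisons ask how carrier transcripts changed with T3 and with loss of the receptor.

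Most of these carriers are nuclear-encoded proteins of the inner mitochondrial membrane that move nucleotides, phosphate, carboxylates, amino acids, cofactors and acylcarnitines between cytosol and matrix. In muscle the ADP/ATP and phosphate carriers feed oxidative phosphorylation, and the aspartate/glutamate and oxoglutarate/malate carriers form the transport steps of the malate-aspartate shuttle, which brings cytosolic reducing equivalents into the mitochondrion. Thyroid hormone is known as a regulator of mitochondrial respiration in muscle.

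Libraries held 14542548 to 75766782 counts, and member genes took between 0.581% and 1.26% of them. On the principal components of all genes, 5 T3 libraries stood apart: WT T3 replicate 5 on the first, and WT T3 replicates 1 and 3 with KO T3 replicates 2 and 3 on the second. WT T3 replicate 5 had the highest value of all 22 libraries for 13 of the 39 tested members and the lowest for 6. Thra, the gene of the deleted receptor, stood at 77.7 ± 8.49 CPM (counts scaled to library size; mean ± SD, n = 5) in WT vehicle and at 47.6 ± 4.42 in KO vehicle (n = 4). With T3 it stood at 42.7 ± 13.5 in WT (n = 6) and 32.6 ± 7.72 in KO (n = 7). The WT T3 mean was below the KO vehicle mean, but the ranges overlapped, at 19.3 to 58.9 and 44.2 to 53.6 CPM. That difference was not tested. Thra was lower in KO by -0.55 ± 0.15 with treatments averaged (adjusted p = 0.0145, edgeR), but the genotype difference was not called under vehicle (adjusted p = 0.0979) or under T3 (adjusted p = 0.271), and T3 lowered it in WT by -0.86 ± 0.20 (adjusted p = 0.0160). Its count does not separate the TRa1 transcript from the other product of the gene. All 7 slow fibre markers were higher and 5 of 8 fast fibre markers lower in KO than in WT over both treatments. Of all genes, 6.03% were higher and 5.42% lower. The summed slow fibre markers spanned 17376 to 32948 CPM over the WT libraries and 40412 to 50887 over the KO libraries. The summed fast fibre markers spanned 27726 to 58024 CPM in WT and 10782 to 27442 in KO. In bulk tissue, fewer cells or fibres of a type and less RNA per cell cannot be told apart.

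A single carrier dominated the family. Slc25a4, the ADP/ATP carrier of heart and skeletal muscle, stood at 1921 CPM per kilobase of gene length, averaged over the 4 groups, and made up 72.4% of the summed level of all members. Slc25a3, the mitochondrial phosphate carrier, followed at 228 CPM per kilobase and Slc25a11, the oxoglutarate/malate carrier, at 169. These 3 genes held 87.4% of the summed level. Slc25a12, the aspartate/glutamate carrier of muscle and brain, stood at 59.8 CPM per kilobase and Slc25a20, the carnitine/acylcarnitine carrier, at 48.1. In all, 12 members reached 10 CPM per kilobase, 23 lay between 1 and 10, and 4 tested members lay under 1. The 8 members that were not tested were Slc25a2, Slc25a18, Slc25a21, Slc25a31, Slc25a41, Slc25a43, Slc25a48 and Slc25a54, and none of them exceeded 8 counts in a library. The coefficient of variation within groups, averaged over the 4 groups, had a median of 16.8% over the tested members, from 7.49% for Slc25a51 to 33.2% for Slc25a29.

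**Figure D1:**
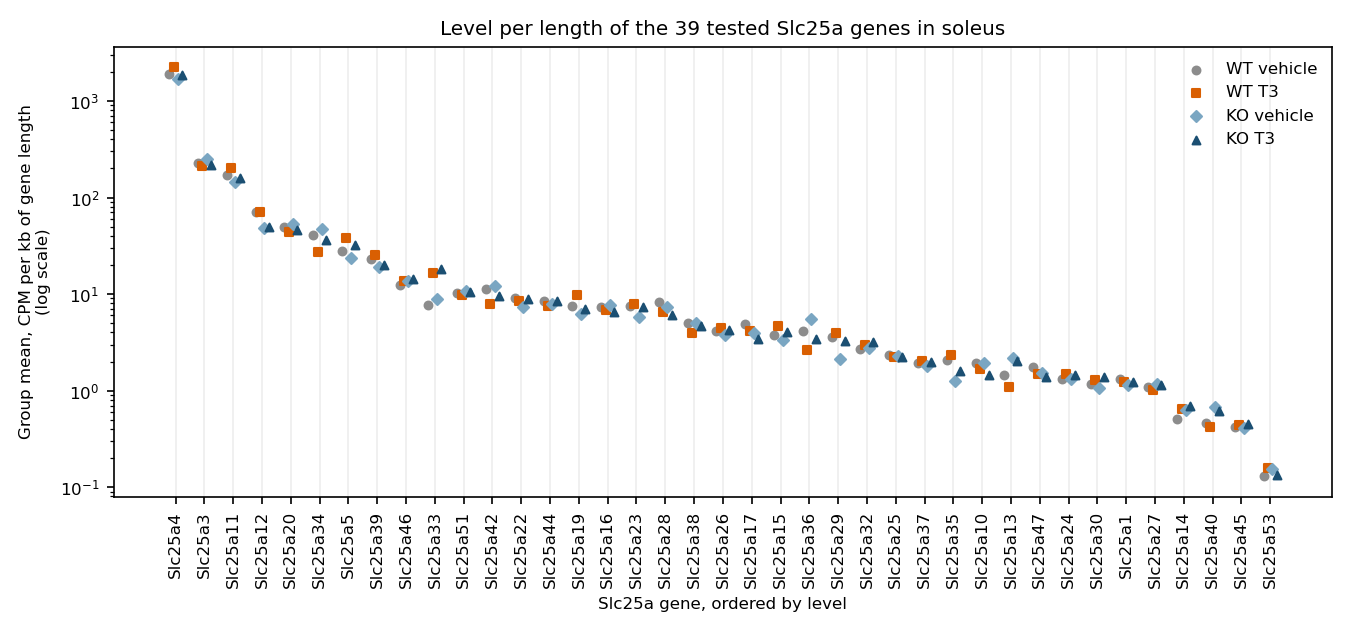
Group mean level of the 39 tested members in CPM per kilobase of gene length (log axis), ordered by level, with a marker for each of the 4 groups. Slc25a4 lies above every other member in all 4 groups.

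Few members changed in any comparison. A call means an adjusted p below 0.05 in edgeR's quasi-likelihood test. With T3 and both genotypes averaged, 3 members rose and 3 fell, which is 15.4% of the 39 beside 10.6% of all genes tested, of which 6.21% rose and 4.38% fell. Between KO and WT with both treatments averaged, 2 were higher and 2 lower, which is 10.3% beside 11.4% of all genes, of which 6.03% were higher and 5.42% lower. Within 1 genotype or treatment the counts were smaller: 3 members for T3 in WT beside 3.31% of all genes, and 1 for T3 in KO beside 2.72%. Under vehicle 2 members differed between KO and WT beside 3.08% of all genes, and under T3 3 members differed beside 5.57%. The median log2 fold change of the 39 members was 0.03 for T3 and -0.02 for KO with the other factor averaged, against 0.02 and -0.01 for all genes. The 10 members called in any comparison were Slc25a5, Slc25a12, Slc25a13, Slc25a15, Slc25a33, Slc25a34, Slc25a35, Slc25a36, Slc25a40 and Slc25a42.

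**Figure D2:**
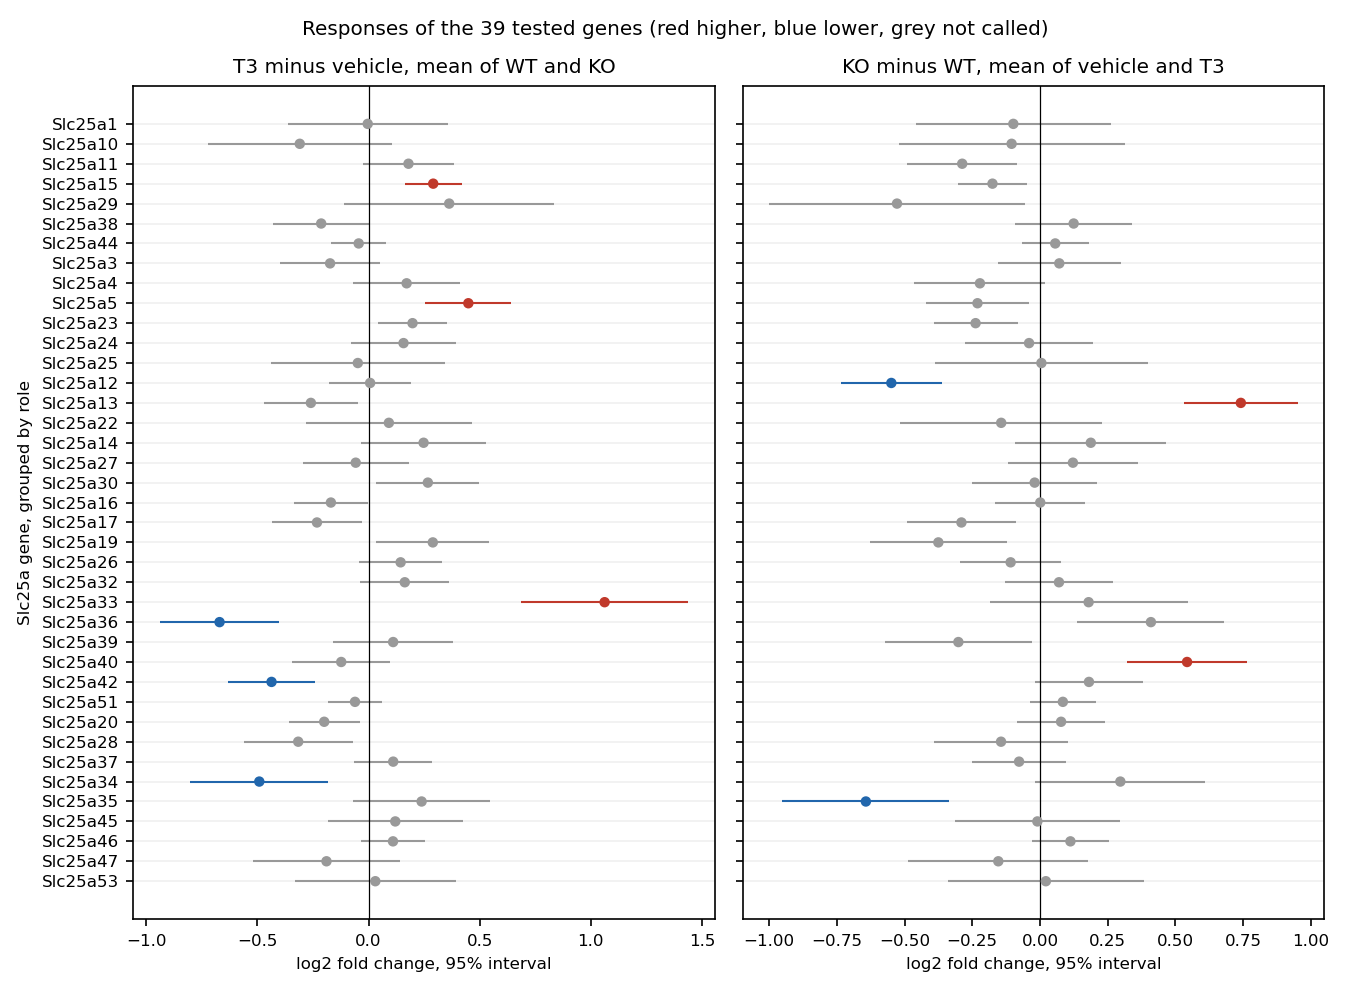
Log2 fold change of each tested member, grouped by role, for T3 minus vehicle averaged over genotypes (left) and KO minus WT averaged over treatments (right), with 95% intervals. Members called higher are red and members called lower blue, 3 and 3 for T3 and 2 and 2 for KO; the others are grey.

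The aspartate/glutamate carriers moved in opposite directions between the genotypes. Slc25a12 was lower in KO by a log2 fold change of -0.55 ± 0.10 (SE; adjusted p = 0.000366, edgeR's quasi-likelihood test) with treatments averaged. Its partner Slc25a13, the form best known from liver, was higher in KO by 0.74 ± 0.11 (adjusted p = 4.63e-05). Both calls were kept when any single library or the 5 T3 libraries that stood apart were left out.

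Slc25a12 was read at 486, 473, 519, 615 and 525 CPM in the 5 WT vehicle libraries, and at 467, 368, 242 and 338 CPM in the 4 KO vehicle libraries. Under T3 it spanned 466 to 571 CPM, with a median of 524, in WT and 284 to 428 CPM, with a median of 372, in KO. The KO libraries lay below the WT libraries under both treatments, without overlap. Of all genes, 4.56% lay lower in this way under vehicle and 0.869% under T3. On the log2 scale KO differed from WT by -0.57 ± 0.15 (adjusted p = 0.0340, edgeR) under vehicle and -0.53 ± 0.12 (adjusted p = 0.00847) under T3. T3 itself left it near 0, at -0.01 in WT and 0.02 in KO.

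Slc25a13 is a far lower message, at 1.68 CPM per kilobase against 59.8 for Slc25a12. It stood at 5.27, 6.94, 6.20, 4.79 and 4.21 CPM in WT vehicle and at 9.08, 8.05, 6.89 and 9.13 CPM in KO vehicle. The lowest KO library lay just under the highest WT library there, so the ranges overlapped. Under T3 it spanned 3.82 to 4.35 CPM, with a median of 4.25, in WT and 5.73 to 10.2 CPM, with a median of 7.41, in KO, without overlap, as 1.64% of all genes lay higher. KO exceeded WT by 0.60 ± 0.16 under vehicle (adjusted p = 0.0462, edgeR) and by 0.88 ± 0.14 under T3 (adjusted p = 0.000252). As a share of the length-scaled sum of both genes, Slc25a13 had a median of 2.06% in WT vehicle, 1.50% in WT T3, 4.51% in KO vehicle and 4.10% in KO T3. The calls under vehicle were less firm. Leaving out 1 library at a time kept Slc25a12 in 13 of 22 fits, with an adjusted p up to 0.190 without KO vehicle replicate 3. It kept Slc25a13 in 9 of 22 fits, with an adjusted p up to 0.150 without KO vehicle replicate 4.

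The 250 bases before each RefSeq start (GRCm38.p6, minus strand) are shown for this pair because its members changed in opposite directions. Capitals mark CACGTG, a short motif bound by E-box factors that was chosen after the sequences were seen. The Slc25a12 window is chr2:71367756-71368005 and the Slc25a13 window is chr6:6217174-6217423.
Slc25a12: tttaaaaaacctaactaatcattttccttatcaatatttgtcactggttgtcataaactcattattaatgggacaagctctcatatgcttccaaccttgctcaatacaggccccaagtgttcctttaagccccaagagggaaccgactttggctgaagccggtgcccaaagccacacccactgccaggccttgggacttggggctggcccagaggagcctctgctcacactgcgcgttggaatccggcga
Slc25a13: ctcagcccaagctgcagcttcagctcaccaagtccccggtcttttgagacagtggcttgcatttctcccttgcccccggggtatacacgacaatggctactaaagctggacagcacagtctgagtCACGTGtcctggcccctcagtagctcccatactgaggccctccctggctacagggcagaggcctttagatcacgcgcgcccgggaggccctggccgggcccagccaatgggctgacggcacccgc
The Slc25a13 window holds CACGTG once, 125 bases before the start, and the Slc25a12 window holds none. The windows of Slc25a33 and Slc25a36, which also changed in opposite directions, each hold it once. Both of these windows overlap the gene as counted. The Slc25a33 match, 8 bases before its RefSeq start, lies within the counted gene. Among the 36 members matched to RefSeq windows, CACGTG stood in 7, beside 6.86% of 27025 genes with both strands searched. AGGTCA, the core of a thyroid hormone response element, stood in 4 members, Slc25a34, Slc25a39, Slc25a45 and Slc25a47, beside 15.8% of all genes. Neither window shown holds AGGTCA. Of the other 3 motifs searched, TCAAGGTCA, which contains AGGTCA, stood in 0 members beside 0.422% of all genes. The NRF1 motif, searched in its palindromic form, stood in 2 beside 4.23%, and TGACGTCA in 2 beside 1.77%. Member windows had a median GC content of 57.4% beside 52.4% for all windows, and its part in these counts was not tested. A match is only a run of letters, and says nothing of binding.

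Enzymes of the same shuttle were also lower in KO. Of the 4 malate-aspartate enzymes tested, 3 were lower and none higher with treatments averaged, beside 5.42% of all genes lower and 6.03% higher. Among the 3 was Got1, the cytosolic aspartate aminotransferase, at -0.77 ± 0.09. Got1 stood at 661 ± 58.9 CPM in WT vehicle (SD, n = 5) and fell to 376 ± 70.2 CPM in KO vehicle (n = 4). Mdh2, the mitochondrial malate dehydrogenase, was lower by -0.48 ± 0.13 (adjusted p = 0.0207, edgeR) and Got2, the mitochondrial aspartate aminotransferase, by -0.27 ± 0.08 (adjusted p = 0.0230). Mdh1 was not called. Slc25a11, the other carrier of the shuttle, averaged 362 ± 26.3 CPM under vehicle in WT (n = 5) and 310 ± 25.3 CPM in KO (n = 4), and under T3 428 ± 106 CPM in WT (n = 6) and 336 ± 62.8 CPM in KO (n = 7). Its difference of -0.29 on the log2 scale over both treatments was not called (adjusted p = 0.0784, edgeR). The slow and fast fibre markers above separate the same libraries. Other markers also moved with genotype over both treatments. In KO 2 of 5 endothelial and 1 of 5 smooth muscle and pericyte markers were lower, beside 5.42% of all genes. Higher was 1 of 5 erythroid markers, beside 6.03%. The summed endothelial markers spanned 241 to 430 CPM over the WT libraries and 239 to 373 over the KO libraries. KO vehicle replicate 3, the library lowest in Slc25a12, held 982 CPM of erythroid markers, against 33.4 to 96.2 CPM in the other KO vehicle libraries. The part of these markers in the genotype differences was not tested.

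The other genotype differences were in a glutathione carrier and a carrier of unsettled substrate. Slc25a40, an importer of glutathione into mitochondria, was read at 3.05, 4.12, 3.73, 3.62 and 4.93 CPM in WT vehicle and at 4.21, 6.43, 6.10 and 5.73 CPM in KO vehicle. Under T3 it spanned 2.43 to 4.48 CPM, with a median of 3.69, in WT and 4.44 to 6.18 CPM, with a median of 5.14, in KO. Most KO libraries were above the WT ones, but the ranges overlapped under both treatments. With treatments averaged it was higher in KO by 0.54 ± 0.11 (adjusted p = 0.00200, edgeR), and under T3 alone by 0.56 ± 0.14 (adjusted p = 0.0212). The call under T3 alone was lost without WT T3 replicate 2 (adjusted p = 0.0585), WT T3 replicate 4 (adjusted p = 0.0824) or KO T3 replicate 5 (adjusted p = 0.0524). Its paralogue Slc25a39 changed by -0.30 between the genotypes, which was not called. Slc25a35 was lower in KO by -0.64 ± 0.16 (adjusted p = 0.00796), from 7.61 ± 1.14 CPM (n = 5) to 4.67 ± 1.07 CPM (n = 4) under vehicle and from 8.60 ± 1.26 CPM (n = 6) to 5.80 ± 2.33 CPM (n = 7) under T3. Slc25a35 shares 1151 of its 3677 exonic bases with Rangrf on the opposite strand, and the strand setting of the counting is not given in the sources used here. Rangrf was counted at no more than 0.140 CPM in any library. How reads in shared bases were counted is not given, so this count cannot show the part of Rangrf in that of Slc25a35.

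**Figure D3:**
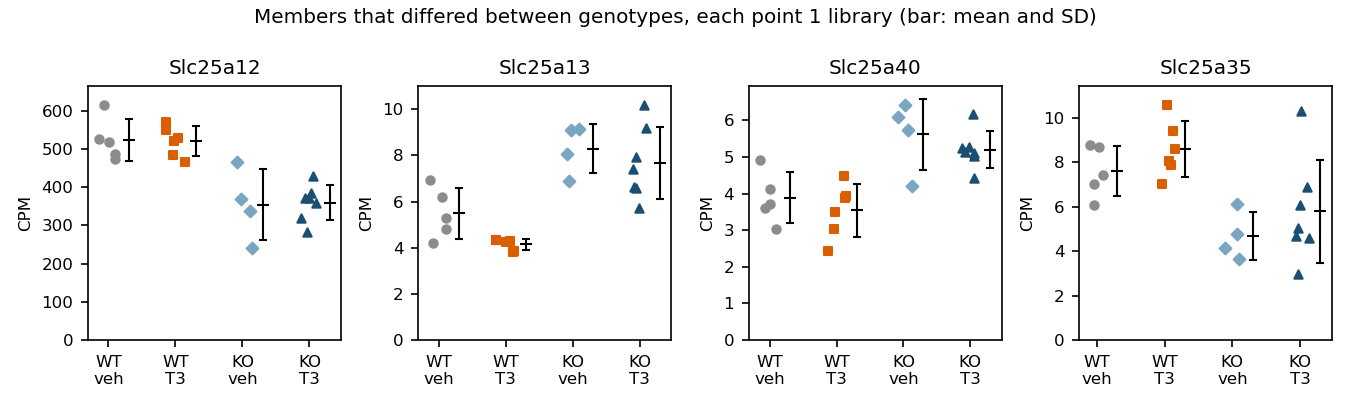
CPM of the 4 members called between KO and WT with treatments averaged; each point is 1 library, and the bars give the mean and SD of each group. Slc25a12 in KO lies below WT without overlap under both treatments, and Slc25a13 in KO lies above WT without overlap under T3.

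T3 raised 3 members and lowered 3 with genotypes averaged. The changes in a pair of mitochondrial pyrimidine nucleotide carriers ran in opposite directions, with Slc25a33 higher by 1.06 ± 0.19 (adjusted p = 0.000756, edgeR) and Slc25a36 lower by -0.67 ± 0.14 (adjusted p = 0.00231). Slc25a5, the widely expressed ADP/ATP carrier, rose by 0.45 ± 0.10 (adjusted p = 0.00412), and Slc25a15, the ornithine carrier, rose by 0.29 ± 0.07 (adjusted p = 0.00485). Slc25a42, a mitochondrial coenzyme A carrier, fell by 0.44 on the log2 scale (SE 0.10, adjusted p = 0.00613), and Slc25a34 fell by 0.49 (SE 0.16, adjusted p = 0.0486).

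Slc25a33 was read at 14.2, 13.0, 11.6, 16.0 and 18.4 CPM in WT vehicle and spanned 20.4 to 57.0 CPM, with a median of 27.6, in WT T3. All WT T3 libraries lay above all WT vehicle libraries, as 1.88% of all genes did. In KO vehicle it stood at 13.1, 20.3, 12.1 and 22.1 CPM, and in KO T3 it spanned 19.5 to 56.6 CPM, with a median of 33.5. There the lowest T3 library overlapped the vehicle range. The T3 response was 1.09 ± 0.26 in WT (adjusted p = 0.0216, edgeR) and 1.04 ± 0.28 in KO (adjusted p = 0.0458). The WT call was lost without WT vehicle replicate 1 (adjusted p = 0.0526), replicate 2 (0.0618) or replicate 3 (0.0730). The KO call held in 5 of 22 fits that left out 1 library, with an adjusted p up to 0.164 without KO vehicle replicate 3. Without the 5 T3 libraries apart, the response over both genotypes was 1.06 (adjusted p = 0.000225). Gm13068, an antisense gene, covers 281 of the 1887 exonic bases of Slc25a33 and was counted below 0.149 CPM. That count cannot show its part in Slc25a33, because the handling of shared bases is not given.

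Slc25a36 was read at 44.5, 45.9, 37.4, 26.6 and 43.5 CPM in WT vehicle and at 38.1, 44.6, 75.9 and 53.0 CPM in KO vehicle. With T3 it spanned 16.0 to 32.1 CPM, with a median of 26.4, in WT and 23.5 to 45.5 CPM, with a median of 31.9, in KO. T3 libraries were mostly lower, with overlap in both genotypes. The fold change was -0.66 ± 0.19 in WT and -0.68 ± 0.20 in KO, neither called alone. Within the pair, the length-scaled share of Slc25a33 had a median of 61.9% in WT vehicle, 84.1% in WT T3, 65.8% in KO vehicle and 85.4% in KO T3. The level of this share depends on the length used. Slc25a36 has a deposited length of 9594 bases but a longest transcript of 5227, and Slc25a33 has 1887 for both.

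Of the ADP/ATP carriers, T3 raised the minor one, Slc25a5, and no change was called in the main one, Slc25a4. Slc25a5 was read at 42.9, 52.2, 44.2, 41.4 and 48.4 CPM in WT vehicle and at 38.5, 34.5, 46.7 and 36.7 CPM in KO vehicle. With T3 it spanned 48.9 to 93.8 CPM, with a median of 58.9, in WT and 44.6 to 61.6 CPM, with a median of 52.9, in KO. Its T3 libraries were mostly higher, with overlap in both genotypes. Slc25a4 was read at 4818, 3962, 3847, 5267 and 4606 CPM in WT vehicle and at 4343, 3748, 4022 and 3857 CPM in KO vehicle. With T3 it spanned 3748 to 8183 CPM, with a median of 5008, in WT and 3230 to 6098 CPM, with a median of 4308, in KO. Its ranges overlapped throughout, and the log2 fold change with T3 was 0.17 ± 0.12 (95% interval -0.07 to 0.41, adjusted p = 0.427, edgeR). That the 2 genes respond differently was not tested. Slc25a3 averaged 1279 ± 133 CPM with vehicle (n = 5) and 1188 ± 358 CPM with T3 (n = 6) in WT, and 1407 ± 140 CPM (n = 4) and 1192 ± 199 CPM (n = 7) in KO. Its log2 change with T3 of -0.17 over both genotypes was not called.

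Slc25a15 was read at 21.4, 21.6, 20.2, 19.7 and 21.8 CPM in WT vehicle and at 17.5, 19.5, 18.0 and 20.8 CPM in KO vehicle. With T3 it spanned 22.5 to 30.5 CPM, with a median of 25.9, in WT and 20.6 to 24.8 CPM, with a median of 23.3, in KO. All WT T3 libraries lay above all WT vehicle libraries, beside 1.88% of all genes. In WT alone the response was 0.32 ± 0.09 (adjusted p = 0.0494), and it kept its call in only 2 of 22 fits that left out 1 library, with an adjusted p up to 0.124 without WT vehicle replicate 3. Without the 5 T3 libraries apart it was 0.19 in WT (adjusted p = 0.289), and 0.22 over both genotypes (adjusted p = 0.0260). With no filter on low counts its call over both genotypes was lost (adjusted p = 0.0614).

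Slc25a42 was read at 62.7, 59.4, 76.9, 71.9 and 69.6 CPM in WT vehicle and at 79.6, 72.9, 64.9 and 72.6 CPM in KO vehicle. With T3 it spanned 34.9 to 57.8 CPM, with a median of 45.4, in WT and 38.5 to 76.4 CPM, with a median of 58.4, in KO. The WT T3 libraries lay below the WT vehicle libraries without overlap, as 1.92% of all genes did, and the KO groups overlapped. In WT alone it fell by 0.53 on the log2 scale (SE 0.14, adjusted p = 0.0376), a call that held in 11 of 22 fits with 1 library left out and reached 0.118 without WT vehicle replicate 3. Slc25a34 averaged 110 ± 11.6 CPM with vehicle (n = 5) and 73.3 ± 16.4 CPM with T3 (n = 6) in WT, without overlap, beside the same 1.92% of all genes. In KO it averaged 127 ± 50.1 CPM with vehicle (n = 4) and 96.1 ± 30.4 CPM with T3 (n = 7), with overlap. Its call over both genotypes held in 7 of 22 fits with 1 library left out, with an adjusted p of 0.141 without KO vehicle replicate 3. It was also lost without the 5 T3 libraries apart (adjusted p = 0.0799).

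**Figure D4:**
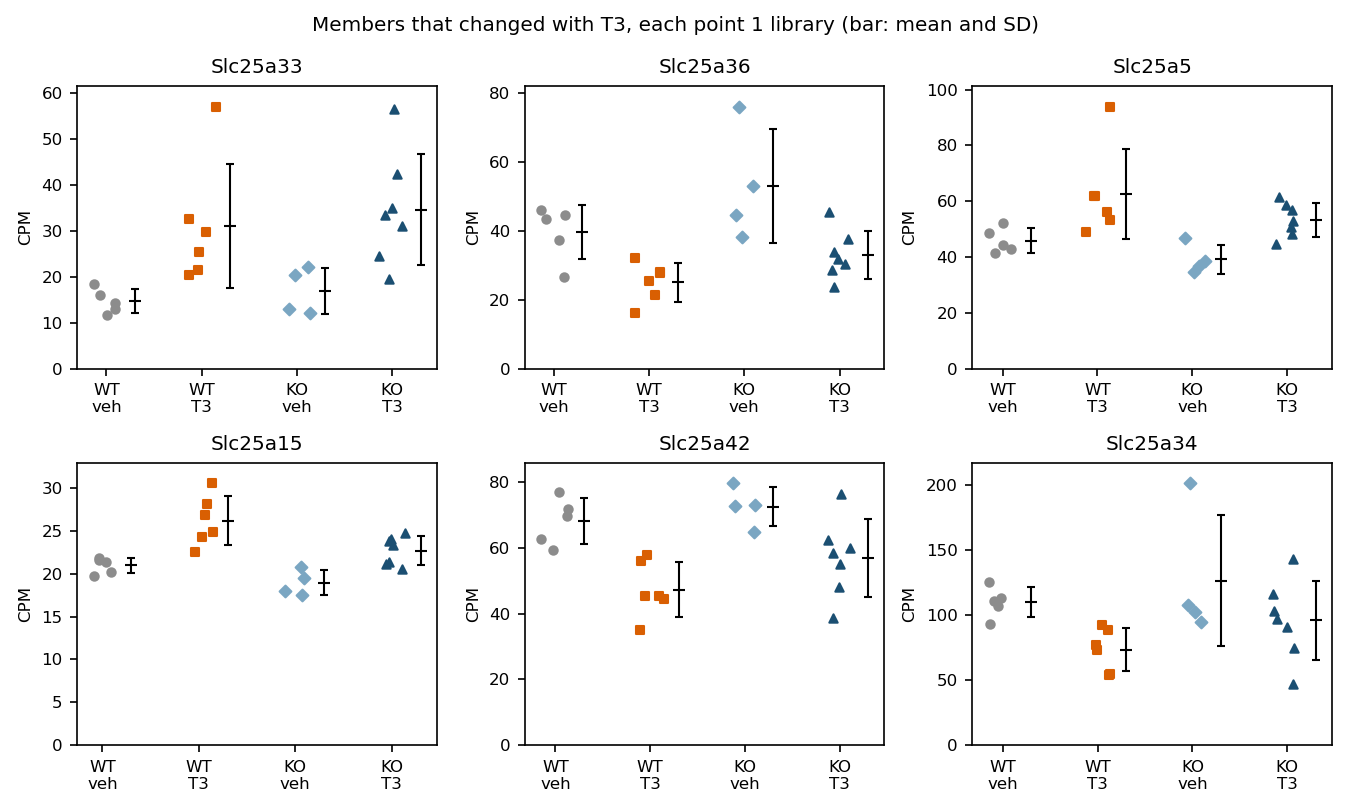
CPM of the 6 members called for T3 with genotypes averaged; each point is 1 library, and the bars give the mean and SD of each group. The Slc25a33 mean is higher and the Slc25a36 mean lower with T3 in both genotypes.

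**Figure D5:**
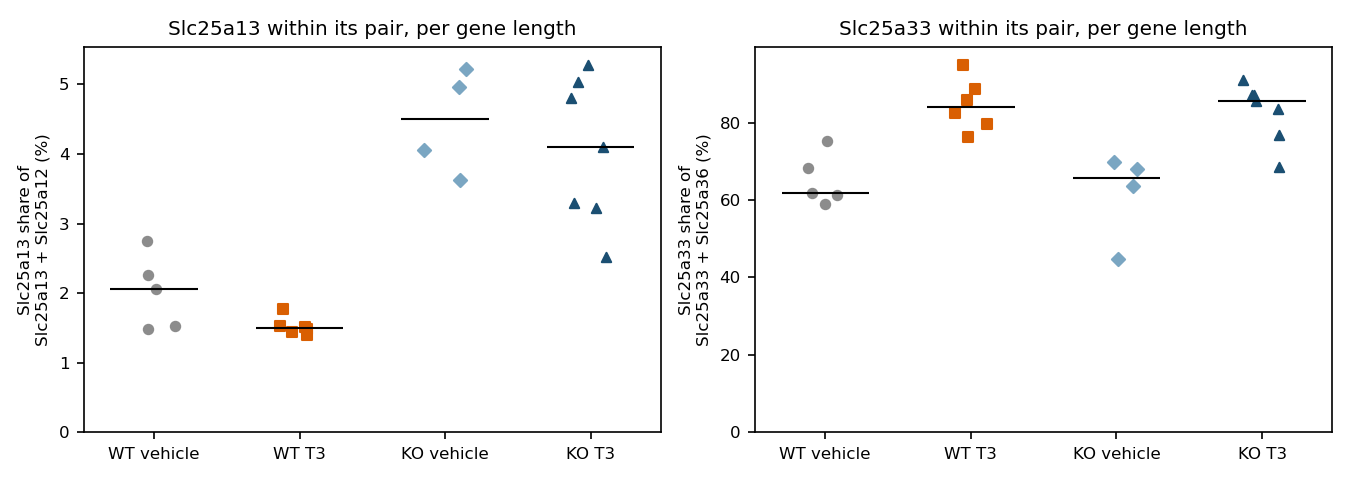
Share of Slc25a13 in the length-scaled sum of Slc25a13 and Slc25a12 (left) and of Slc25a33 in that of Slc25a33 and Slc25a36 (right), in percent; each point is 1 library and each line a group median. The median Slc25a13 share is higher in KO (4.51% against 2.06% under vehicle), and the median Slc25a33 share is higher with T3 (84.1% against 61.9% in WT).

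Some genes in the other lists of related mitochondrial genes were also called, and not all of them are given here. Slc25a20 averaged 242 ± 11.2 CPM with vehicle (n = 5) and 211 ± 34.8 CPM with T3 (n = 6) in WT, and 256 ± 17.1 CPM (n = 4) and 222 ± 29.2 CPM (n = 7) in KO. Its change of -0.20 ± 0.08 over both genotypes was not called (adjusted p = 0.128, edgeR), but without the 5 T3 libraries apart it was -0.29 (adjusted p = 0.0349). Among 6 carnitine shuttle enzymes, 2 fell with T3, beside 4.38% of all genes. Cpt1b, the muscle carnitine palmitoyltransferase of the outer membrane, fell by 0.63 and Crat, carnitine acetyltransferase, by 0.35 on the log2 scale. Of 4 tested members of the carrier family with other names, 1 rose with T3, beside 6.21% of all genes. This was Ucp3, the uncoupling protein of skeletal muscle, which rose by 0.80 ± 0.23 (adjusted p = 0.0245, edgeR). In WT it went from 125 ± 36.1 CPM with vehicle (n = 5) to 244 ± 26.4 CPM with T3 (n = 6). In KO it averaged 91.4 ± 65.0 CPM with vehicle (n = 4) and 143 ± 49.4 CPM with T3 (n = 7), with overlap. It was not called for T3 in WT alone or in KO alone. Among 13 other small-molecule routes, 1 was lower in KO, Mpc1, a subunit of the mitochondrial pyruvate carrier, by -0.45 ± 0.09 (adjusted p = 0.00108, edgeR), beside the 5.42% of all genes that were lower. Among 15 genes of the machinery that imports carrier proteins, 1 fell with T3, beside 4.38% of all genes. This was Tomm20, a receptor of the outer membrane, which fell by 0.27 on the log2 scale (adjusted p = 0.0241, edgeR). None of the 15 was called for KO, where 0 also had an unadjusted p below 0.05. With T3 over both genotypes, 2 of 5 fibroblast, 2 of 6 macrophage and 1 of 8 fast fibre markers rose. Falling were 4 of 5 smooth muscle and pericyte markers and 2 of 6 Schwann cell markers. So were 1 of 7 slow fibre markers and 1 of 2 tested brown adipocyte markers. Of all genes, 6.21% rose and 4.38% fell. The summed fibroblast markers spanned 228 to 336 CPM in WT vehicle and 256 to 622 in WT T3, and 183 to 324 in KO vehicle and 266 to 531 in KO T3. The part of all these markers in the changes of members was not tested.

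No member was called for a difference in its T3 response between the genotypes. In edgeR's test of the difference 0 of 39 members were called, beside 0.00663% of all genes, and 0 had an unadjusted p below 0.05. DESeq2 and limma voom also called 0. The fitted differences of KO minus WT ran from -0.44 for Slc25a53 to 0.46 for Slc25a29. For Slc25a33 the difference was -0.05 (95% interval -0.78 to 0.68), for Slc25a5 it was -0.00 (-0.39 to 0.38) and for Slc25a42 it was 0.18 (-0.22 to 0.58), so sizeable differences in either direction remain within the intervals. The T3 fold change had the same sign in WT and in KO for 34 of 39 members, beside 69.9% of all genes, and these comparisons share no libraries. For KO against WT the sign was the same under vehicle and T3 for 30 of 39, beside 69.0% of all genes.

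The remaining roles held no called member beyond those above. With T3 averaged over genotypes, the 3 tested di- and tricarboxylate carriers lay between -0.31 and 0.18, the 3 uncoupling-protein-like carriers between -0.06 and 0.27, and the 2 iron carriers between -0.32 and 0.11. With KO averaged over treatments these groups lay between -0.29 and -0.10, -0.02 and 0.19, and -0.14 and -0.08. The calcium-dependent ATP-magnesium/phosphate carriers Slc25a23, Slc25a24 and Slc25a25 lay between -0.05 and 0.20 for T3. Slc25a23 came closest to a call for KO, at -0.24 (adjusted p = 0.0536, edgeR). Slc25a16 was lower in every KO T3 library than in any KO vehicle library, the only tested member without overlap for T3 in KO, beside 1.91% of all genes. Its fold change there was -0.23 and was not called. Slc25a47 and Slc25a29 lie head to head on chromosome 12, with 162 bases between them, and neither was called. The pair Slc25a43 and Slc25a5 on chromosome X lies 18448 bases apart, and only Slc25a5 was expressed enough to be tested.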

How the data were processed

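The authors deposited a table of raw read counts for each gene in every library, along with gene lengths. Per the submitters' processing notes the tools were STAR 2.7.3a, featureCounts 1.6.4 and edgeR 3.26.8 on mm10; their order, strand handling and annotation release were not given in the sources used here. Per the labels' protocols the libraries were stranded poly-A libraries. Symbols came from GENCODE M21, which holds 55394 of the 55487 genes; 93 have no symbol. Of the members, 37 have the same coordinates there. A pseudogene, Slc25a5-ps, was left out.

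The filter on low counts was edgeR 4.0.16's filterByExpr (R 4.3.3) at a minimum count of 10, and the genes left held at least 99.9% of the counts of each library. All 22 libraries were fitted together with TMM scaling and the quasi-likelihood test, without covariates, and p-values were adjusted by Benjamini and Hochberg over all genes tested. SE comes from the fit. CPM are scaled by TMM library size, and CPM per kilobase uses the deposited length. Replicates are numbered in accession order, which pairs nothing.

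Values by group are given for each called member and for 7 carriers of the main muscle fluxes, and per library for the 8 called members with the smallest adjusted p and for Slc25a4. Some results of the lists of related genes are not reported here. The members, lists and tests were chosen with earlier results of these data known. The alternatives tried were scaling by RLE, by upper quartile and by total counts, no filter, a stricter filter (1 CPM in 4 libraries), DESeq2 1.42.0, limma voom 3.58.1, only the groups compared, 1 surrogate variable (sva 3.50.0), leaving out the 5 T3 libraries apart and leaving out each library. A correction for GC content and length of transcripts was chosen after seeing the data. The edgeR fit was tested on simulated counts that held known T3 changes, equal in both genotypes, and no genotype change. The other steps were not tested in this way. Promoter windows are from RefSeq. Figures used matplotlib 3.10.9.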

Additional observations from a re-analysis of the deposited data

Results flagged for a closer look

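In 7 of 56 groups, over 14 members with group values, a single library stood far from the others; chance alone gives about 1 in 20. WT T3 replicate 5 accounts for 3 of them: Slc25a4 at 8183 CPM beside 3748 to 5212 in the other WT T3 libraries, Slc25a5 at 93.8 CPM beside 48.9 to 62.0, and Slc25a33 at 57.0 CPM beside 20.4 to 32.5. The Slc25a5 and Slc25a33 calls over both genotypes held without it. KO vehicle replicate 3 accounts for 2: Slc25a3 at 1199 CPM beside 1463 to 1504, and Slc25a34 at 201 CPM beside 94.9 to 108. Slc25a3 in WT vehicle replicate 5 was 1513 CPM beside 1200 to 1268. Slc25a11 in KO T3 replicate 4 was 465 CPM beside 269 to 352.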

How the results depend on the processing

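No paired analysis was possible because the labels give no replicate numbers, so accession-order numbers pair nothing. Of 617 settings of the 19 called single-gene results, 0 reversed and 113 lost the call. For T3 the calls for Slc25a5, Slc25a33, Slc25a36 and Slc25a42 over both genotypes, and for KO those for Slc25a12, Slc25a13, Slc25a35 and Slc25a40, held in all 32 alternatives. The number of members called for T3 in WT was 3. It became 1 with total counts, with no filter or with only the groups compared, 5 with DESeq2 and 6 with 1 surrogate variable. Leaving out 1 library gave 0 to 4. Calls over all genes went from 499 to 425, 353, 291, 832 and 1049 in these settings, in the same order. For T3 in KO the member count was 1. It became 0 with total counts or only the groups compared, and 2 with DESeq2. It became 3 with 1 surrogate variable, without the 5 T3 libraries apart or with the GC and length offset. Leaving out 1 library gave 0 to 3. Calls over all genes went from 410 to 398, 382, 660, 750, 682 and 787, in the same order. For KO under vehicle the member count was 2. It became 1 with total counts or the offset, 0 with no filter and 5 without the 5 T3 libraries apart. Leaving out 1 library gave 0 to 2. Calls over all genes went from 465 to 581, 745, 368 and 1032, in the same order. For KO under T3 the member count was 3, and became 5 with 1 surrogate variable or the offset. Leaving out 1 library gave 2 to 6. Calls over all genes went from 840 to 1276 with the surrogate variable and 1398 with the offset. For the difference of responses the member count stayed at 0 in every fit. For T3 over both genotypes the member count was 6, and became 12 with the offset, where calls over all genes went from 1597 to 2248. Leaving out 1 library gave 5 to 7. For KO over both treatments the member count was 4. It became 9 with total counts (7 higher, 2 lower, when the median of all genes moved to 0.144) and 7 with DESeq2 (3 and 4). With 1 surrogate variable it became 13 (3 and 10), and with the offset 11 (3 and 8). Leaving out 1 library gave 4 to 8. Over all genes, calls rose from 1726 to 2813 with total counts, 2086 with DESeq2, 2640 with the surrogate variable and 2613 with the offset. The cause of these moves was not tested. The 4 KO calls were shared by all these settings. Only the T3 change of Slc25a12 over both genotypes, near 0 and never called, turned sign: -0.00595 with RLE and -0.00595 with DESeq2, -0.0123 with no filter, and -0.0795 to 0.0875 when 1 library was left out. The lowest count of a called member in any library was 53, and that of a tested member was 14.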
